A study of Mus musculus with 18 samples.

Results

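The cytosolic ribosomal protein genes encode the protein part of the small and large subunits of the cytoplasmic ribosome. Members were chosen by gene symbol alone (Rps or Rpl names, the stalk genes Rplp0, Rplp1 and Rplp2, and Rpsa), restricted to protein-coding genes, which gave 84 of the 51435 genes listed. Of these, 32 belong to the small and 52 to the large subunit, and 6 genes with the same kind of symbol were left out because they are annotated as pseudogenes. Poly(A) RNA was sequenced from the left ventricle (LV) of 18 C57BL/6J mice, 9 WT and 9 WWP2Mut/Mut male littermates. WWP2 is an E3 ubiquitin ligase, and the mutant allele is a CRISPR/Cas9 deletion of 4 bp in exon 2 of Wwp2. Every mouse of both genotypes received angiotensin II (AngII), a pressor peptide that drives hypertrophy and fibrosis of the ventricle, at 500 ng/kg/min for 28 days from 8 weeks of age by subcutaneous pump. There are no mice without AngII here, so the comparison is between genotypes under AngII only. The 2 genotypes are spread over 4 sequencing lanes of 4 or 5 mice each.

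Ribosomal proteins are made in roughly matched amounts, because each ribosome holds 1 copy of nearly every one of them. Their mRNAs are short and abundant, and many begin with a tract of pyrimidines directly at the transcription start, the 5′ terminal oligopyrimidine (TOP) tract, through which the mTOR pathway controls their translation. A few members have a paralog, and some of these paralogs can take the same place in the ribosome or are made in particular tissues. Rpl3l is the striated muscle form of Rpl3, Rpl10l and Rpl39l are known from the male germ line, and Rps27l, Rpl22l1, Rpl36al and Rpl7l1 are relatives of Rps27, Rpl22, Rpl36a and Rpl7.

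Start-site sequences were available for 64 of the 84 members (RefSeq, GRCm38.p6, matched by symbol). A run of 8 or more C or T bases lay within the 30 bases centred on the start (15 before, 15 from the start on) in 27 of these 64, or 42.2%, against 13.9% of all 27025 genes with an entry. A start written as C followed by 4 bases that are C or T was found in 13 members, or 20.3%, against 3.01% of all genes. The motif CCGGAAG, looked for on both strands in the full 300 bases from 250 before the start, was present in 40.6% of members and 9.93% of all genes, and TATAAA in 10.9% and 15.7%. Some matches of CCGGAAG on the opposite strand overlap a pyrimidine run. The windows below show the paralogs described next and, of the members whose levels differed most or least between mice, those with an entry (Rps20 and Rpl7 have none). Rps27, a parent gene among the 5 most abundant members, was added as an example of a run across the start. Each covers 30 bases, 5′ to 3′ on the gene's strand, with the longest C or T run in capitals and the annotated start at base 16.
Rps27 (chr3:90213634-90213663, minus strand): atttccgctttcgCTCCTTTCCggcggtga
Rpl38 (chr11:114668565-114668594, plus strand): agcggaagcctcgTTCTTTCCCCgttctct
Rpl28 (chr7:4792950-4792979, plus strand): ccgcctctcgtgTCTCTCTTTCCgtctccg
Rpl4 (chr9:64173372-64173401, plus strand): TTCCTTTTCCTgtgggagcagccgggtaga
Rpl22l1 (chr3:28805493-28805522, plus strand): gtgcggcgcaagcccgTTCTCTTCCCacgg
Rps27l (chr9:66946071-66946100, plus strand): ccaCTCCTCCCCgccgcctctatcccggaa
Rpl3l (chr17:24727811-24727840, plus strand): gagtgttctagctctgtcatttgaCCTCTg
Rpl39l (chr16:10170213-10170242, plus strand): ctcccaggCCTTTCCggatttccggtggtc
Rpl36al (chr12:69184053-69184082, minus strand): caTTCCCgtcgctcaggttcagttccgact
Rpl10l (chr12:66284387-66284416, minus strand): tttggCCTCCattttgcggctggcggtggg
Rpl7l1 (chr17:46782642-46782671, minus strand): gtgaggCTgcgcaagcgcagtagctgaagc
In Rps27, Rpl38 and Rpl28 the run spans the annotated start. In Rpl4 and Rps27l a run lies before it, and in Rpl22l1 it begins just after it. The longest run is 7 bases in Rpl39l, 5 in Rpl3l, Rpl36al and Rpl10l and 2 in Rpl7l1, so 5 of the 7 paralogs hold no run of 8 in this window.

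Libraries held 24566994 to 37451087 expected counts. Wwp2 itself checked the labels: its level was 5.09 ± 0.600 TPM (a transcript abundance scaled by length and by library, mean ± SD, n = 9) in WT and 1.72 ± 0.528 (n = 9) in WWP2Mut/Mut, with no overlap between the groups. In an edgeR quasi-likelihood fit over all genes with lane and RNA concentration as covariates, the log2 fold change of Wwp2 was -1.40 (SE 0.157, adjusted p = 0.00113). Wwp2 was the only gene of 24804 tested that passed an adjusted p of 0.05. The listed RNA concentration was higher in WWP2Mut/Mut (median 187.4 ng/µl) than in WT (98.3 ng/µl), and that of WT mouse 43-3 was listed as 1.68 ng/µl. All 12 liver genes of a marker list had lower fitted values in WWP2Mut/Mut (median log2 fold change -2.02), each at an unadjusted p below 0.05 in edgeR (3.66% of all genes) and none at an adjusted p below 0.05. Their summed level ran from 27.3 to 398 TPM in WT and from 27.1 to 104 TPM in WWP2Mut/Mut, and WT mouse 45-1 was the highest. Cardiomyocyte markers summed to 49605 to 64710 TPM over the libraries, as the highest of the marker lists, and their median log2 fold change was -0.013 (6 of 12 above 0). Of the other marker lists, the medians were -0.15 for fibroblast genes (9 of 10 below 0), -0.0053 for endothelial, 0.28 for smooth muscle, 0.016 for immune, 0.17 for erythrocyte and 0.14 for atrial genes. In whole tissue, fewer cells of a type and less RNA per cell cannot be told apart.

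Most members were abundant transcripts. Since TPM is scaled by transcript length, levels were compared between genes, within limits set by divided reads and library coverage (described further on). Of the 83 members with any count, 80 had a mean of at least 100 TPM, the median member was at 389 TPM, and 9 members were among the 100 genes with the highest mean. The order began with Rps29 (1290 TPM), the stalk gene Rplp1 (1181 TPM), Rps15 (1062 TPM), Rps27 (1015 TPM) and Rpl41 (1002 TPM). Over the mice, Rps29 had a lowest, median and highest TPM of 1030, 1172 and 1629 in WT and of 936, 1422 and 1582 in WWP2Mut/Mut. The corresponding values of Rplp1, which docks translation factors on the ribosome, were 890, 1249 and 1399 in WT and 789, 1264 and 1462 in WWP2Mut/Mut. The ranges of all 5 leading genes overlapped, so their order was not fixed across mice. The other stalk protein genes were lower: Rplp0, the base of the stalk, averaged 607 TPM and Rplp2, the partner of Rplp1, 556 TPM. Rpsa, a small-subunit protein that is also known as the laminin receptor, averaged 500 TPM.

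**Figure D1:**
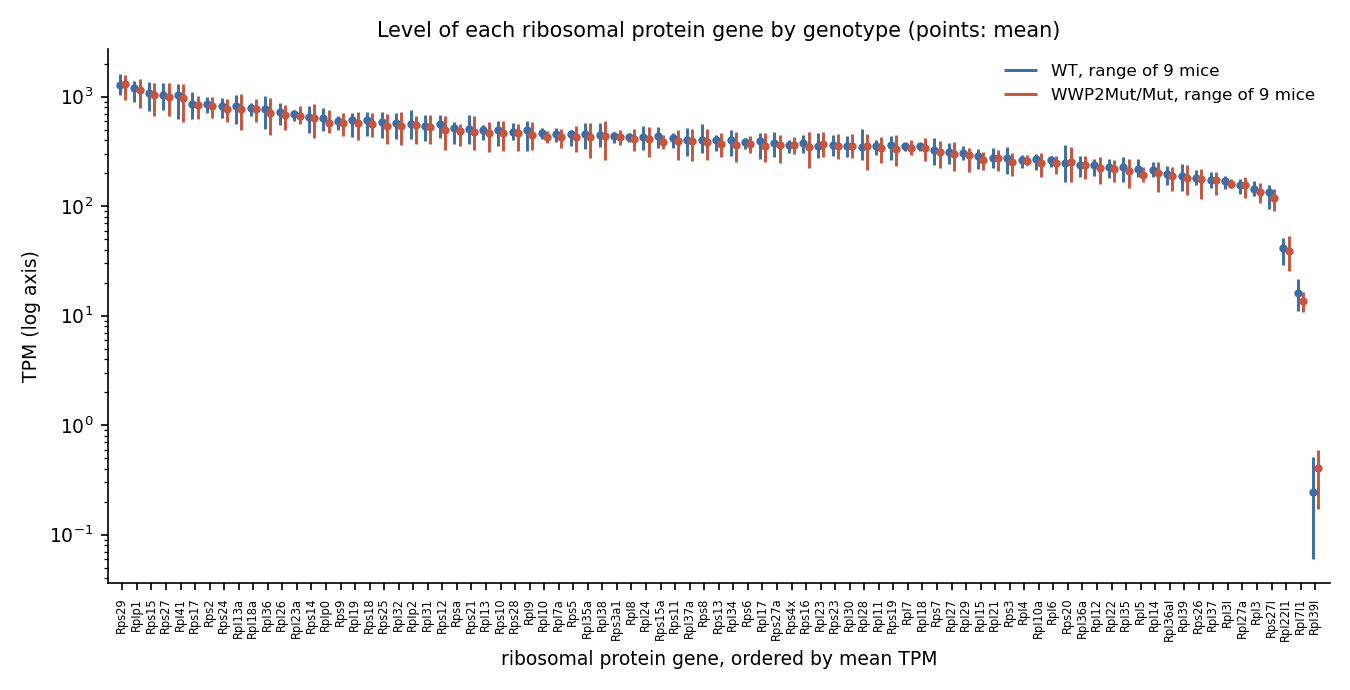
TPM of the 83 ribosomal protein genes with any count (log axis), ordered by mean over 18 mice; vertical lines span the lowest to the highest of 9 mice per genotype and points are means. From Rps29 (1290 TPM) to Rps27l (127 TPM) neighbours overlap, and Rpl22l1, Rpl7l1 and Rpl39l stand apart at the low end.

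The low end of the order was made of paralogs. Rps27l averaged 127 TPM, followed by Rpl22l1 (40.3 TPM), Rpl7l1 (14.8 TPM) and Rpl39l (0.324 TPM), and Rpl10l had 0 counts in every library. No mouse of either genotype had as much Rpl22l1 (highest 53.3 TPM) as the lowest Rps27l (90.9 TPM), and the ranges of Rpl22l1 and Rpl7l1 (10.8 to 21.4 TPM) were likewise separate. Rpl39l rested on 2 to 19 counts per library. The only parent gene among the 5 lowest members tested was Rpl3, the general form of a large-subunit core protein, at 139 TPM.

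Rpl3l exceeded Rpl3 in these ventricles. Rpl3l (chromosome 17, 24727820 to 24736143, plus strand) had 145, 167 and 191 TPM as lowest, median and highest of WT mice and 146, 156 and 178 TPM in WWP2Mut/Mut. Rpl3 (chromosome 15, 80077791 to 80091868, minus strand) had 123, 147 and 171 TPM in WT and 107, 131 and 163 TPM in WWP2Mut/Mut. Within each mouse, the muscle form was above the general form in 16 of 18 animals, 8 of each genotype, the exceptions being WT mouse 39-1 and WWP2Mut/Mut mouse 54-1. Rpl3l made up a median of 53.7% of the pair, with a range of 48.8% to 59.4%. In the other pairs the paralog was below its parent in every mouse. It made up a median of 44.5% for Rpl36al, 15.03% for Rpl22l1, 11.3% for Rps27l and 4.30% for Rpl7l1. Rps4l, the annotated pseudogene that resembles Rps4x, had 25.6 ± 3.66 TPM in WT and 25.4 ± 5.05 TPM in WWP2Mut/Mut (SD, n = 9 each), beside 366 TPM of Rps4x in WT. Many members have near-identical processed copies in the genome, and 86.9% of the members' expected counts above 0 were not whole numbers as written, against 12.7% over the 11336 genes with a mean of at least 1 TPM. Reads of 77 members were thus divided between loci by the quantification, and levels of those genes carry that uncertainty. The counts of Rpl3l and Rps27l were whole in all 18 libraries, whereas 94.4% of those of Rpl3 and 100% of those of Rps27 were not. The comparison of Rpl3l with Rpl3 thus rests on divided reads on the side of Rpl3.

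**Figure D2:**
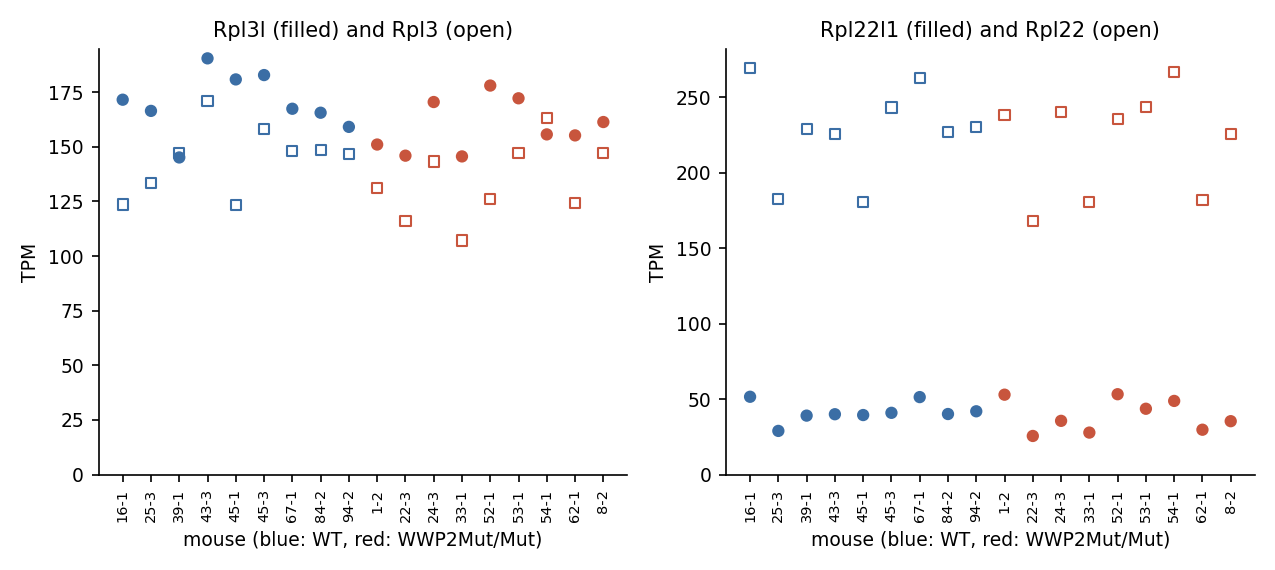
TPM in each of the 18 mice (x axis, by mouse number) of Rpl3l and Rpl3 (left) and of Rpl22l1 and Rpl22 (right), filled for the paralog and open for the parent. Rpl3l lies above Rpl3 in 16 mice, whereas Rpl22l1 lies far below Rpl22 in all 18, and the genotypes overlap in each case.

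The genotype comparison asked whether disruption of WWP2 under AngII went with a change in the ribosomal protein transcripts. No member passed the test. In the edgeR fit, 0 of 83 members tested had an adjusted p below 0.05, against 0.00403% of all genes. At an unadjusted p below 0.05 the count was also 0, against 3.66% of all genes, and DESeq2 likewise called 0 members, with 0 at that unadjusted p. The lowest unadjusted p of a member was 0.0884. In no member were the TPM ranges of the genotypes separate, against 0.00403% of all genes. The fitted values were nevertheless nearly all on one side: 82 of 83 log2 fold changes were above 0 (higher in WWP2Mut/Mut), against 48.1% of all genes, with a median of 0.17 beside -0.0099 over all genes. Since the members vary together between mice (described further on), these values are not independent of each other, and the median SE of a member, 0.20, was above the median fold change. By subunit, the median was 0.18 for the 32 small-subunit genes and 0.17 for the 51 large-subunit genes tested.

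That one-sided pattern depended on the scale and on the covariates. On mean TPM, 6 members were higher and 77 lower in WWP2Mut/Mut, where 22.3% of all genes were higher. With no covariates in edgeR, 75 of 83 members were above 0 (51.3% of all genes) and the median fell to 0.061. With the libraries' gene body coverage value as a further covariate, 54 of 83 were above 0 (48.9% of all genes) with a median of 0.022. In limma on log2(TPM + 1) with the same 2 covariates, 43 of 83 were above 0 (26.1% of all genes) with a median of 0.0080. With the liver genes as a covariate the median was 0.29. It was 0.080 without WT mouse 45-1, when 72 members were above 0, and 0.29 without WT mouse 16-1. Without WWP2Mut/Mut mice 53-1 or 33-1 it was 0.091 or 0.26.

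**Figure D3:**
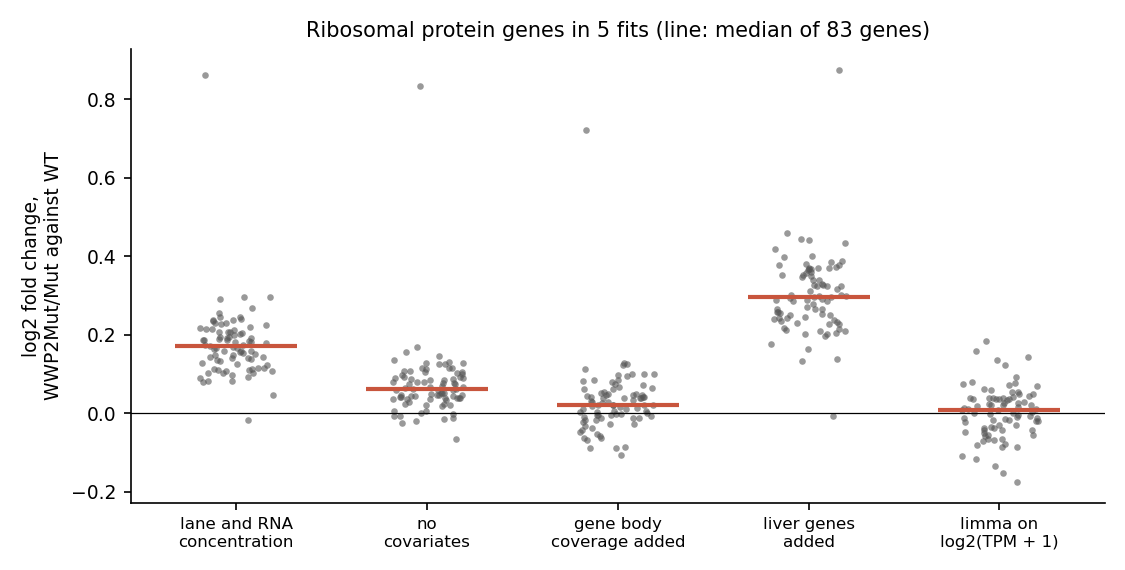
Log2 fold change (WWP2Mut/Mut against WT) of the 83 ribosomal protein genes tested, 1 point per gene, in 5 fits: edgeR with lane and RNA concentration, without covariates, with gene body coverage or liver genes added, and limma on log2(TPM + 1). The medians are 0.17, 0.061, 0.022, 0.29 and 0.0080, and no member passed an adjusted p of 0.05 in any of the 5.

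Single members showed the same overlap of the genotypes. The smallest p values with a positive sign were those of Rpl39l, Rpl23, Rpl4 and Rps2. Rpl39l had 0.06, 0.20 and 0.51 TPM as lowest, median and highest of WT mice and 0.17, 0.40 and 0.60 TPM in WWP2Mut/Mut, with a log2 fold change of 0.86 (SE 0.479, edgeR adjusted p = 1). This gene was at the limit of detection. Rpl23, a protein of the large subunit, had 273, 317 and 466 TPM in WT and 279, 388 and 480 TPM in WWP2Mut/Mut, with a log2 fold change of 0.30 (SE 0.208, edgeR adjusted p = 1). Rpl4, another large-subunit protein, had a log2 fold change of 0.15 (SE 0.105), and Rps2, at the mRNA entry of the small subunit, of 0.20 (SE 0.140). The single member below 0 was Rpl7l1, with -0.019 (SE 0.0903, edgeR adjusted p = 1) and 11.1, 16.96 and 21.4 TPM in WT against 10.8, 13.8 and 16.4 TPM in WWP2Mut/Mut. For the stalk, log2 fold changes were 0.10 for Rplp0 (SE 0.159), 0.22 for Rplp1 (SE 0.211) and 0.24 for Rplp2 (SE 0.212). That of Rpsa was 0.21 (SE 0.183). With SEs of this size, changes of 0.2 on the log2 scale were not detectable in most members.

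Relative use of paralog and parent was compared by the log2 ratio of their TPM within each mouse, with 1 added to both, so that library scaling bears on it only through this pseudocount, most for the low Rpl7l1. None of 5 ratios differed between genotypes in a two-sided exact permutation test of the mice. The difference in log2 ratio (WWP2Mut/Mut minus WT) was 0.022 for Rpl3l over Rpl3 (exact p = 0.793), from 0.24 ± 0.18 in WT to 0.26 ± 0.17 in WWP2Mut/Mut (SD, n = 9 each). It was -0.14 for Rpl7l1 over Rpl7 (exact p = 0.209), -0.056 for Rpl22l1 over Rpl22 (exact p = 0.527), -0.084 for Rps27l over Rps27 (exact p = 0.272) and -0.057 for Rpl36al over Rpl36a (exact p = 0.110). After Benjamini-Hochberg adjustment over the 5 ratios, exact p values were 0.454 to 0.793. Within lanes the difference for Rpl3l over Rpl3 ranged from -0.11 to 0.14, and its sign was not the same in every lane. Over the mice, the ratios of Rpl7l1 to Rpl7 and of Rps27l to Rps27 followed the gene body coverage value of the library. Their r was -0.89 and -0.85 over 18 mice, given as a description. The r was 0.55 for Rpl22l1 to Rpl22, -0.47 for Rpl36al to Rpl36a and 0.19 for Rpl3l to Rpl3.

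The summed level of the members differed far more between mice than between genotypes. Members took 2.03% to 3.31% of counts in WT (median 2.59%) and 1.87% to 3.25% in WWP2Mut/Mut (median 2.84%). Their summed TPM was 37282 ± 4634 in WT and 35537 ± 6473 in WWP2Mut/Mut (SD, n = 9 each). The difference between genotypes had no constant sign over lanes: WWP2Mut/Mut minus WT was -9935 TPM in lane 1, 4856 in lane 2, 420 in lane 3 and -3798 in lane 4. With each library rescaled to the same TPM total, the values were -9387, 4558, -579 and -3129 in that order, so the sign in lane 3 turned.

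The share moved with the gene body coverage value that the deposited sample table lists for each library, a fraction named for the lower part of the gene body, with no further definition in the sources used here. It ran from 0.0288 to 0.0540 in WT and from 0.0313 to 0.0526 in WWP2Mut/Mut. Across the 18 mice, its correlation with the ribosomal protein share was r = 0.80 (Spearman rho 0.81). Without the 2 mice farthest from the median coverage value, WT mouse 16-1 and WWP2Mut/Mut mouse 52-1, it was 0.74. It was 0.75 within WT and 0.85 within WWP2Mut/Mut. WT mouse 45-1 departed from this order, with a share of 2.03% at a coverage value of 0.0408. At the gene level, TMM-scaled log2 CPM followed the coverage value with a median r of 0.80 over 82 members with at least 1 TPM, and 79 of them had r above 0.5. Over all 11336 genes at that level the median r was -0.055, and 27.9% were above 0.5. The share also moved with the summed level of a list of hypertrophy and contractile genes (Nppa, Nppb, Myh7, Acta1, Ankrd1, Myh6 and Atp2a2; r = -0.65, rho -0.69). Of 14 measures set against the share, the TPM total of the library, which excludes mitochondrial genes, had the highest r (0.87, rho 0.79). Cardiomyocyte genes had r = 0.48 (rho 0.42, 0.74 within WWP2Mut/Mut), erythrocyte genes r = 0.39 (rho 0.43, 0.62 within WWP2Mut/Mut), the A260/230 ratio of the RNA r = -0.38 (rho -0.33), RNA concentration r = -0.27 (rho -0.24) and fibroblast genes r = -0.30 (rho -0.35). The liver genes had r = -0.049 but rho 0.33, with r = -0.23 within WT and 0.53 within WWP2Mut/Mut. The part of RNA quality or coverage in these levels was not tested, and lanes hold too few mice for values within them.

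**Figure D4:**
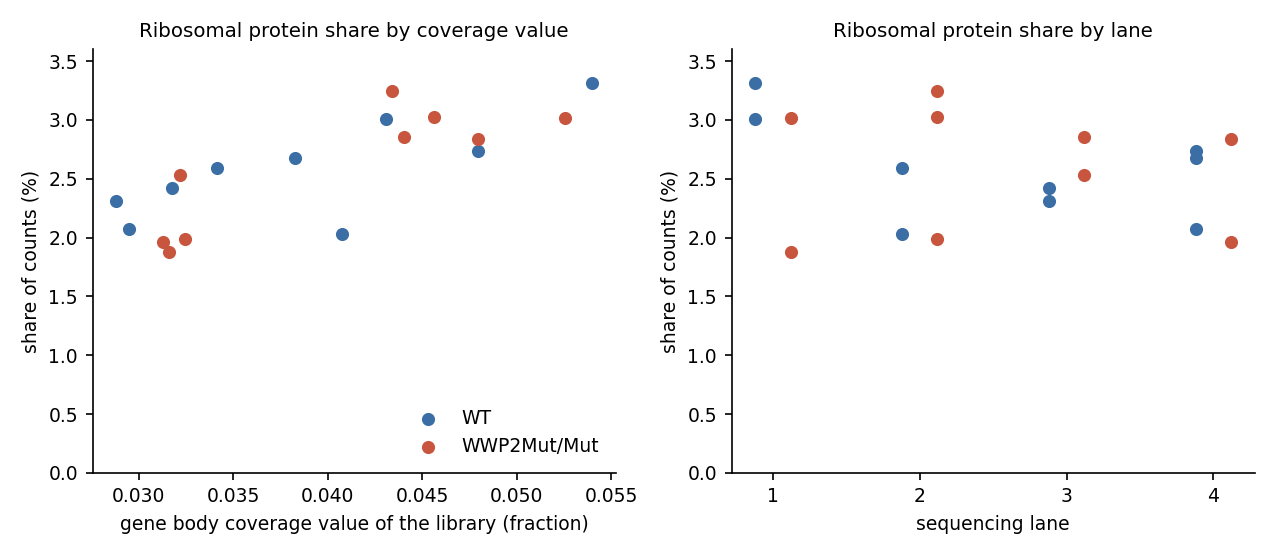
Share of each library's expected counts from ribosomal protein genes (y axis, percent) against the library's gene body coverage value (left, fraction) and sequencing lane (right), 1 point per mouse. The share rises with the coverage value (r = 0.80) in both genotypes, and WT and WWP2Mut/Mut overlap along it and within lanes 1, 2 and 4, whereas in lane 3 both WT mice lie below both WWP2Mut/Mut mice.

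Between mice the members rose and fell together. The median correlation between pairs of the 82 members over 18 mice was 0.87 on log2(TPM + 1), where it was 0.30 over all genes at that level, and 0.96 on TMM-scaled log2 CPM, where it was 0.0007 over all genes. Within genotypes, log2(TPM + 1) gave 0.80 in WT and 0.92 in WWP2Mut/Mut (0.38 and 0.17 over all genes), and TMM-scaled log2 CPM gave 0.96 and 0.97. The difference between genotypes was not tested. Expressed as a share of the members' summed TPM, the level of a member varied by a median coefficient of variation (CV) of 6.83%, against 16.6% for TPM itself. Rpl36al (CV of its share 2.90%) and Rpl11 (2.95%) kept the steadiest shares. The least steady shares were those of Rpl7l1 (25.3%), Rps3 (21.3%) and Rpl4 (19.2%), and the next were those of Rpl5, Rplp0 and Rpl3l. A share also varies when the summed TPM moves and the member does not. On TPM itself Rpl4 (CV 6.995%) and Rpl3l (8.17%) had the lowest values, whereas Rpl7l1 (17.5%) and Rps3 (17.1%) lay near the median.

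Members with longer transcripts tended to vary less, with exceptions. The number of counts per TPM served as a measure of the length used in the quantification. Members were divided into 4 groups of 20 or 21 by it. In the group with the fewest counts per TPM (7.39 to 15.9, from Rps27 to Rplp2) the median CV of TPM was 19.1%, and in the group with the most (33.1 to 109, from Rpl7a to Rpl7l1) it was 13.0%. The median r of log2(TPM + 1) with the coverage value fell from 0.67 through 0.63 and 0.54 to 0.21 over the 4 groups. On TMM-scaled log2 CPM the corresponding values were 0.83, 0.80, 0.79 and 0.76, so the fall with length was largely limited to the TPM scale. The highest CVs were those of Rps20 (26.6%), Rpl28 (24.7%) and Rpl38 (23.7%). Of these, Rpl38 was in the group of the shortest transcripts, whereas Rps20 (27.4 counts per TPM) and Rpl28 (24.5) were in the third group, whose median CV was 15.6%. Rps20, a small-subunit protein, ranged from 167 to 362 TPM in WT and from 167 to 345 TPM in WWP2Mut/Mut. The lowest CVs were those of Rpl4 (6.995%), Rpl3l (8.17%) and Rpl7 (8.96%), so that Rpl4 had 225 to 292 TPM in WT and 237 to 295 TPM in WWP2Mut/Mut. On the TPM scale 3 members did not rise and fall with the summed TPM of the others, namely Rpl7l1 (r = -0.25), Rpl4 (r = -0.19) and Rps3 (r = 0.061), and the next lowest was Rpl5 (r = 0.31). On TMM-scaled counts Rpl4 (r = 0.79) and Rps3 (r = 0.61) followed the coverage value, whereas Rpl7l1 did not (r = -0.23).

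**Figure D5:**
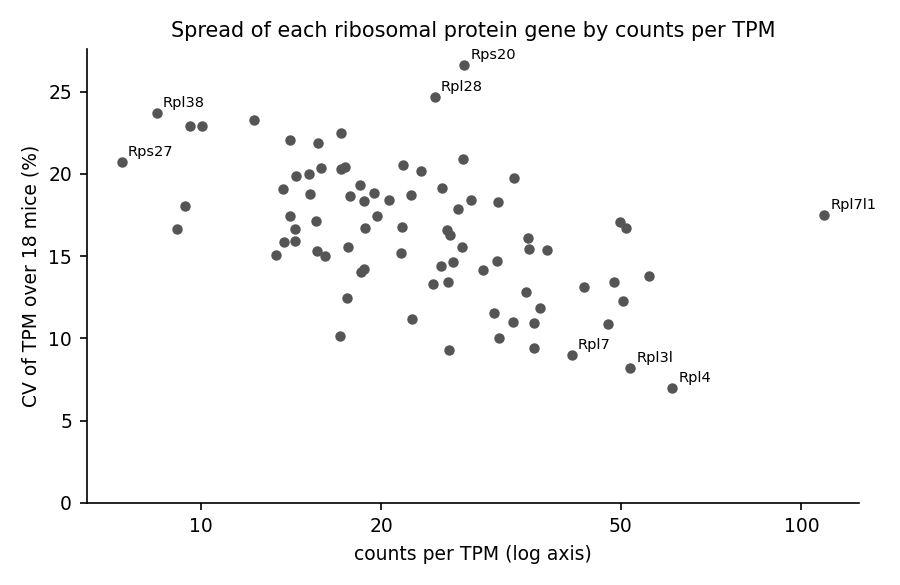
Coefficient of variation of TPM over 18 mice (y axis, percent) against counts per TPM (log axis, a measure of transcript length), 1 point per ribosomal protein gene with a mean of at least 1 TPM. Genes with few counts per TPM such as Rpl38 (23.7%) tend to vary more than long ones such as Rpl4 (6.995%), and the 2 highest points, Rps20 and Rpl28, are exceptions at 27.4 and 24.5 counts per TPM.

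Of 8 relations tested between mice, 1 passed on Pearson's r. Rpl22l1 rose with its parent Rpl22 (r = 0.85, permutation p = 2e-05, adjusted 0.00016; rho 0.79, permutation p = 0.00014, adjusted 0.00112). Without the 2 mice farthest from the median r was 0.76, within WT it was 0.83 and within WWP2Mut/Mut 0.87, and after removal of lane and RNA concentration it was 0.83. The permutation compares r with 0, and the r of this pair was no higher than that of a typical pair of members (median 0.87), so its pass is not particular to the pair. Rpl3l was set against genes of the stressed ventricle. With Myh7, the slow myosin heavy chain that returns in hypertrophy, r was 0.54 (permutation p = 0.0225, adjusted 0.0902) and rho was 0.61 (permutation p = 0.0085, adjusted 0.034), so only the rank measure passed. These tests compare with 0, whereas the median r of a pair of genes was 0.30 on this scale. The r of Rpl3l with Myh7 was 0.34 within WT and 0.53 within WWP2Mut/Mut. The correlation of Rpl3l with Nppb, the natriuretic peptide gene, was 0.45 (permutation p = 0.0629) and with Rpl3 0.41 (permutation p = 0.0912). The relations with Nppa, Acta1, Myh6 and Atp2a2 were weaker over all mice, at 0.11, 0.11, 0.056 and -0.23, but each had opposite signs within the genotypes. In WT and WWP2Mut/Mut, r was -0.32 and 0.60 for Nppa, 0.30 and -0.29 for Acta1, 0.40 and -0.48 for Myh6 and 0.16 and -0.75 for Atp2a2. The difference between genotypes was not tested. On TMM-scaled counts Rpl3l and Atp2a2, the sarcoplasmic calcium pump, had r = -0.82, Rpl3l and Nppa r = 0.56, and Rpl3l and Rpl3 r = 0.80, each past the adjusted threshold, so these relations depend on the scale. The value with Rpl3 was below that of a typical pair of members on this scale (0.96). Rpl3l itself followed the gene body coverage value on this scale (r = 0.86), and the part of coverage in these relations was not tested.

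Other genes of the translation machinery gave no calls either. Of 24 translation factors, 15 were above and 9 below 0 (median log2 fold change 0.037), and of 41 ribosome biogenesis genes 18 were above and 23 below (median -0.016). Of 14 genes that act in the control of TOP mRNAs and of ribosome production, 3 were above and 11 below 0 (median -0.064). In these 3 lists 0 genes had an adjusted p below 0.05 in edgeR, and 1 of 79 had an unadjusted p below 0.05, where 3.66% of all genes did and 48.1% were above 0: Myc, the transcription factor known to drive ribosome production, at -0.54 (SE 0.188, edgeR adjusted p = 0.973). Of the 7 hypertrophy and contractile genes, 1 was above and 6 below 0, with a median of -0.31 and 0 calls in edgeR, also at an unadjusted p. Nppb had the lowest value, -0.66 (SE 0.336, edgeR adjusted p = 1).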

How the data were processed

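LV libraries of 9 WT and 9 WWP2Mut/Mut mice were analysed, grouped by genotype in the labels. Per the methods, the authors aligned reads to the mouse m38 genome with STAR 2.5.2b, quantified them with RSEM 1.2.31, and removed rRNA-biotype and mitochondrial genes. The deposited tables hold RSEM expected counts and TPM, not whole reads. TPM totals per library (671770 to 826381) therefore fell short of those of a full TPM table. The deposited sample table gives lane, RNA concentration, absorbance ratios and, as a fraction, a gene body coverage value. One absorbance ratio was listed as 214 and was not used. Symbols and coordinates are from GENCODE M21 (GRCm38), matched by Ensembl ID for 99.6% of genes.

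Expected counts were rounded, genes with more than 1 count in total were kept (24804), and genotype was tested with edgeR 4.0.16 (TMM, quasi-likelihood, lane and centred RNA concentration), adjusted over all genes by Benjamini-Hochberg. DESeq2 1.42.0 and limma 3.58.1 (R 4.3.3) were alternatives. The study used DESeq2 with the same covariates. Log values are log2(TPM + 1), a scale that understates changes of low genes. Ratios were tested over all 48620 divisions of the mice, correlations with 100000 permutations. The edgeR and limma fits were tested on simulated data. Members, lists and the rule for named genes (paralog pairs, stalk and Rpsa, extremes of level, p and CV) were chosen with earlier results of these data known. Replicates are separate mice. Precision is limited by their number and, for low genes, by counts.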

Additional observations from a re-analysis of the deposited data

Results flagged for a closer look

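Of 70 groups of 9 mice examined, 2 held a mouse that stood apart by Dixon's test at its 95% critical value, where chance alone marks about 1 group in 20. Rpsa was lowest in WT mouse 45-1, at 368 TPM, when the other WT mice had 493 to 591 TPM. The same mouse had the highest summed level of liver genes (398 TPM) and a ribosomal protein share of 2.03%, and leaving it out moved the median log2 fold change of the members from 0.17 to 0.080. Wwp2 was highest among WWP2Mut/Mut mice in mouse 52-1, at 3.00 TPM, when the other 8 had 1.19 to 1.90 TPM. It remained below the lowest WT mouse (3.83 TPM).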

How the results depend on the processing

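No member was called in any of the 32 alternatives, which included 18 that left out 1 mouse each, and the median log2 fold change of the members stayed above 0 in all of them (0.0080 to 0.29). The number of members above 0 was 54 with gene body coverage added and 43 in limma with either pseudocount, and 72 to 83 with 1 mouse left out. Over all genes, 2 were called in limma on log2(TPM + 1), 4 in DESeq2 and 1 to 2 with 1 mouse left out. Named after their values were seen, the further genes were Rfxap in limma, Fam205a1, 1700047I17Rik2 and Gm15725 in DESeq2, and Ugt1a1 without WWP2Mut/Mut mouse 1-2 or WT mouse 84-2. Wwp2 was called throughout (-1.61 to -1.15). Setting the concentration of WT mouse 43-3 to the median of the others, chosen after seeing the data, gave a median of 0.19 for the members.

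Of 27 named members, 14 kept their direction in every alternative that tested them (Rpl39l did not pass filterByExpr), and none was called in any. With gene body coverage added the sign turned in Rpl22l1 (-0.11), Rps27l (-0.088), Rps15 (-0.0071), Rpl41 (-0.010) and Rpl38 (-0.0029). In limma on log2(TPM + 1) it turned in Rpl3 (-0.031), Rpl3l (-0.048), Rpl7 (-0.00054), Rpl22l1 (-0.066), Rps27l (-0.12), Rpl36al (-0.0081), Rpl10 (-0.086), Rplp0 (-0.069) and Rpl4 (-0.021). With a pseudocount of 0.1, which moved the median of all genes to -0.11, the values were -0.031, -0.048, -0.00055, -0.068, -0.12, -0.0081, -0.087, -0.069 and -0.021 in that order. Rps27l was also negative with library totals only (-0.028), without covariates (-0.025) and with lane alone (-0.018). With 1 mouse left out it ranged from -0.074 to 0.15, Rplp0 from -0.0047 (without WT mouse 45-1) to 0.19 and Rpl7l1 from -0.056 to 0.029.

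No log2 ratio of paralog to parent passed with counts in place of TPM, a pseudocount of 0.1 or 1 mouse left out. That of Rpl3l to Rpl3 ranged from -0.011 to 0.062 with 1 mouse left out. Within lane 1 the difference was 0.12 for Rpl7l1 to Rpl7 and 0.12 for Rps27l to Rps27, within lane 2 it was 0.039 for Rpl36al to Rpl36a and -0.11 for Rpl3l to Rpl3, and within lane 3 it was 0.075 for Rpl22l1 to Rpl22, each opposite in sign to the value over all lanes. The log2 ratio of summed levels was -0.38 within lane 1 and 0.20 within lane 2. On TMM-scaled counts the correlation of Rpl3l passed, against 0, with Rpl3 (0.80, below the 0.96 of a typical pair of members), Nppa (0.56) and Atp2a2 (-0.82), and with Acta1 it was -0.15. Without the 2 mice farthest from the median it passed with Myh7 (0.64), and was -0.079 with Acta1 and -0.086 with Myh6. After removal of lane and RNA concentration it was -0.035 with Nppa. The causes were not tested. No paired analysis was possible because mice of the genotypes share no replicate numbers.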
